A study of Mus musculus with 6 samples.

Results

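The genes described here are 33 named genes of the cell cycle and of DNA replication, taken by symbol from the 36727 genes of the deposited table. All 33 were found, and all 33 were among the 16455 genes with enough counts to be tested. They were taken by name, and the list was drawn up with earlier results of these data known. They comprise 8 replication genes, the 2 E cyclins with Cdk2, 14 genes of mitosis, 3 D cyclins, Cdk4 and Cdk6, and 3 inhibitors of cyclin-dependent kinases.

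A dividing cell copies its DNA and then separates the copies in mitosis. D cyclins, joined to Cdk4 or Cdk6, and then E cyclins, joined to Cdk2, free E2F transcription factors from the retinoblastoma protein, and E2F factors switch on the replication genes. The A and B cyclins with Cdk1 bring the cell into mitosis, and their genes are switched on later in the cycle. In the ovary the granulosa cells of growing follicles divide most, under follicle-stimulating hormone and estradiol, and Ccnd2 is the D cyclin known for this response.

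RNA came from ovarian tissue that the labels call estrous-phased, of adult female mice of an F4 inbred Swiss albino strain, 135 to 140 days old. One group had a high litter size (replicates 1, 3 and 4) and the other a low litter size (replicates 1, 2 and 5), which is the one difference the labels give. All 6 libraries were made from polyadenylated RNA with a TruSeq kit, and no treatment or genotype is named. Whether the 3 samples of a group were separate animals is not stated, so each p-value refers only to the spread among these 6 samples, and that spread may be technical in part. Values below are CPM, estimated counts scaled to a common TMM-normalized library total, given in the order of the replicate numbers above. A log2 fold change is high minus low litter size.

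Total estimated counts were 17620903 to 24758222 per library, the largest being low replicate 5, and 1 count was worth 0.0404 to 0.0568 CPM before TMM normalization. The label ovary was checked against granulosa, oocyte and luteal or theca markers, and 3 libraries stood apart. The 10 granulosa markers summed to 138, 58.5 and 692 CPM in the high group and 402, 87.6 and 336 CPM in the low group, and 5 of the 10 were under 1 CPM in high replicates 1 and 3 and low replicate 2, against 0 of 10 in each of the other 3. Inha, which encodes a chain of the granulosa cell hormone inhibin, had 1.64, 2.12 and 199 CPM in the high group and 182, 1.23 and 109.8 CPM in the low group. Fshr, the receptor for follicle-stimulating hormone, had no count in high replicates 1 and 3, where 0 counts allow up to 0.153 and 0.187 CPM, and 0.0533 CPM in low replicate 2. The 12 oocyte markers summed to 2.04, 4.37 and 94.5 CPM in the high group and 20.04, 3.63 and 68.9 CPM in the low group. Some granulosa markers stayed well above 1 CPM in high replicates 1 and 3 and low replicate 2. Foxl2 had 21.4, 10.3 and 21.6 CPM there. Serpine2 had 70.6 CPM in high replicate 1, above low replicates 1 and 5 at 69.3 and 66.0 CPM. By the sums above, high replicates 1 and 3 and low replicate 2 had little RNA of the defining ovarian cell types. Values without these libraries are given for each group of genes below.

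None of the 33 cell cycle genes passed the edgeR quasi-likelihood test of high against low litter size at an adjusted p of 0.05, and their smallest adjusted p was 0.288. Over all genes tested the same rule called 0.00608%, which was 1 gene. At an unadjusted p under 0.05 there were 2 members, Ccnd2 higher and Ccnd1 lower in the high group, which is 6.06% of the members beside 14.4% of all genes tested (6.56% higher and 7.82% lower). For the same 2 genes the libraries of the groups did not overlap (6.06% beside 19.5%, of which 8.75% had the high group above and 10.8% below). DESeq2 called 1 member, Ccnd2 (3.03% beside 6.24% of all genes, 2.15% higher and 4.08% lower), and voom with limma called 0 members (0.0182% of all genes). Both shares at the looser rules were below the background. The median log2 fold change was -0.10 over the members, of which 21 were negative and 12 positive, and 0.068 over all genes tested, of which 44.7% were negative.

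**Figure D1:**
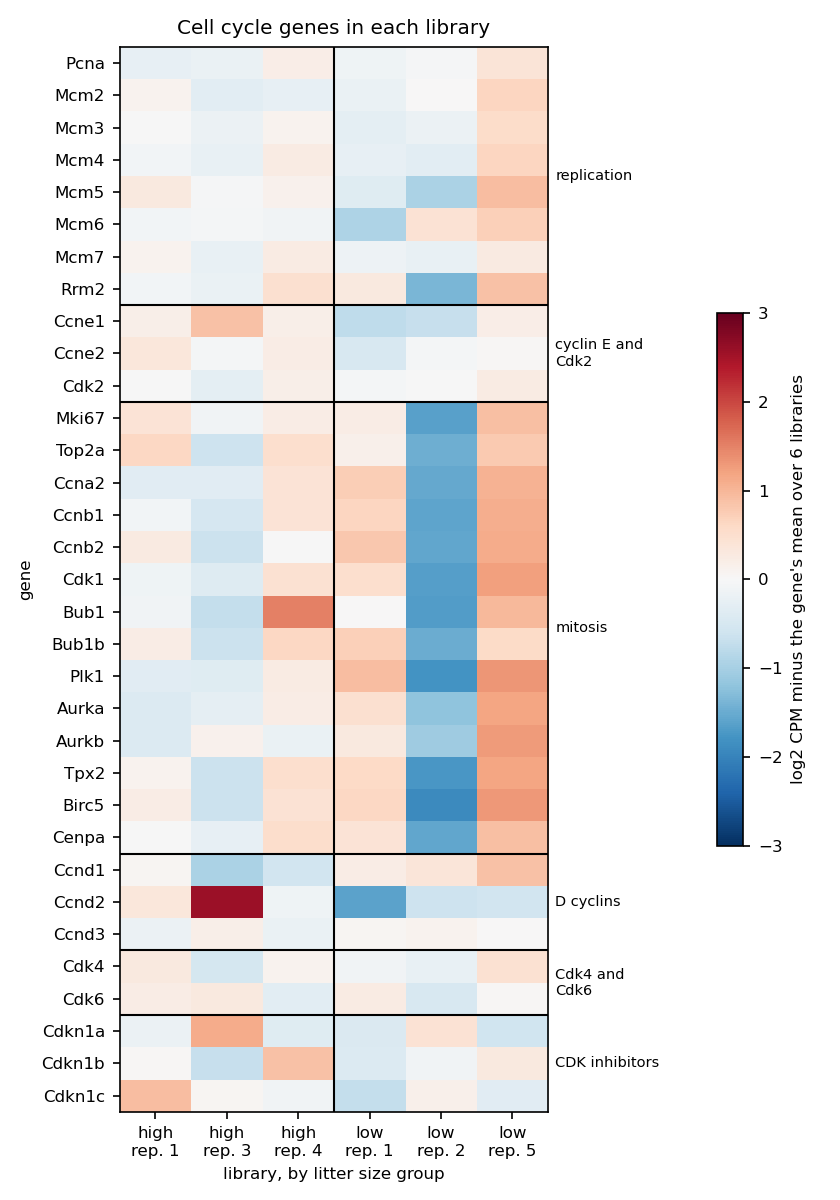
Each row is 1 of the 33 genes and each column 1 of the 6 libraries; colour is log2 CPM minus the gene's mean over the libraries, from 3 below (blue) to 3 above (red). Low replicate 2 is the lowest library for all 14 mitosis genes, and Ccnd2 in high replicate 3 is the reddest cell of the D cyclin rows.

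The replication genes, from helicase subunits to the clamp, gave 0 of 8 that passed the test, and most differed little between libraries. Pcna, the sliding clamp that holds DNA polymerase on its template (ENSMUSG00000027342, chromosome 2, 132249162 to 132253314, GRCm38), had 50.1, 52.2 and 69.2 CPM in the high group and 55.1, 58.8 and 78.8 CPM in the low group (log2 fold change -0.17, SE 0.23, edgeR adjusted p = 0.778). The groups overlapped, and low replicate 5 was the highest. Mcm2 (ENSMUSG00000002870, chromosome 6, 88883474 to 88898780) and Mcm5 (ENSMUSG00000005410, chromosome 8, 75109569 to 75128439) are 2 of the 6 subunits of the helicase that unwinds DNA at the fork. Mcm2 had 27.4, 20.6 and 21.3 CPM in the high group and 22.1, 25.9 and 39.8 CPM in the low group (log2 fold change -0.34, SE 0.28, edgeR adjusted p = 0.622), and without low replicate 5 the log2 fold change was -0.054. Mcm5 had 24.4, 19.6 and 21.7 CPM in the high group and 15.5, 10.3 and 37.96 CPM in the low group (log2 fold change 0.04, SE 0.47, edgeR adjusted p = 0.978). Low replicates 2 and 5 bounded the range of Mcm5, with all 3 high libraries between them. Rrm2, the subunit of ribonucleotide reductase whose amount limits the supply of deoxynucleotides (ENSMUSG00000020649, chromosome 12, 24708241 to 24714146), had 7.21, 6.68 and 10.7 CPM in the high group and 9.30, 2.88 and 14.03 CPM in the low group (log2 fold change -0.093, SE 0.57, edgeR adjusted p = 0.955). Its lowest and highest libraries were again low replicates 2 and 5.

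The other helicase subunits lay in the same band. Mcm3 ranged from 21.1 to 38.0 CPM over the 6 libraries, and Mcm4 from 23.0 to 45.2 CPM. Mcm6 ranged from 15.6 CPM in low replicate 1 to 48.8 CPM in low replicate 5. Mcm7 ranged from 34.0 to 47.7 CPM, but it overlaps Ap4m1 and Cops6 on the opposite strand. Whether counting used strand is not stated, so reads from the shared bases may not have been told apart. The length of the overlap is not given here. The 6 subunits work as a ring with 1 copy of each, and their levels per kilobase of the principal transcript can be set side by side. Mcm7 had the highest median, 13.2 CPM per kilobase, and Mcm5 the lowest, 6.11 CPM per kilobase. Mcm2, Mcm3 and Mcm4 had medians of 7.12, 7.98 and 7.19 CPM per kilobase, and each of them spread over more than the gaps between them. Mcm6 had a median of 9.64 CPM per kilobase and was above Mcm7 in low replicates 2 and 5.

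Cyclin E messages were low beside their kinase. Ccne1 (ENSMUSG00000002068, chromosome 7, 38097984 to 38107534) had 3.22, 5.31 and 3.17 CPM in the high group and 1.62, 1.71 and 3.27 CPM in the low group (log2 fold change 0.82, SE 0.47, edgeR adjusted p = 0.473). The groups overlapped, since low replicate 5 was above high replicates 1 and 4. Ccne2 (ENSMUSG00000028212, chromosome 4, 11191351 to 11204779), the second E cyclin, had 7.77, 5.93 and 7.14 CPM in the high group and 4.39, 5.92 and 6.28 CPM in the low group (log2 fold change 0.33, SE 0.31, edgeR adjusted p = 0.675). It overlaps Ints8 on the opposite strand, whose counts were 810 to 1527 beside as few as 76 for Ccne2. Cdk2, the kinase both activate, ranged from 23.5 to 34.3 CPM (log2 fold change -0.097, SE 0.21), and it overlaps Pmel on the opposite strand. Without high replicate 3 the log2 fold change of Ccne1 was 0.53, and without high replicates 1 and 3 and low replicate 2 it was 0.33. That of Ccne2 was 0.19 without low replicate 1 and 0.39 without the 3 libraries. The median over the 3 genes was 0.33 in both fits.

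The mitosis genes varied far more between libraries than the replication genes, and their lowest and highest values both lay mainly inside the low litter size group. Mki67, the proliferation antigen that coats mitotic chromosomes (ENSMUSG00000031004, chromosome 7, 135689784 to 135716361), had 60.98, 42.2 and 53.6 CPM in the high group and 52.97, 14.7 and 84.8 CPM in the low group (log2 fold change 0.04, SE 0.57, edgeR adjusted p = 0.982). Top2a, the topoisomerase that untangles sister chromosomes (ENSMUSG00000020914, chromosome 11, 98992943 to 99024189), had 84.4, 35.6 and 78.1 CPM in the high group and 60.4, 19.8 and 94.5 CPM in the low group (log2 fold change 0.18, SE 0.58, edgeR adjusted p = 0.911). Ccnb1, the B cyclin that activates Cdk1 (ENSMUSG00000041431, chromosome 13, 100778650 to 100786570), had 9.25, 6.80 and 13.02 CPM in the high group and 15.3, 3.20 and 20.9 CPM in the low group (log2 fold change -0.44, SE 0.65, edgeR adjusted p = 0.799). In each of these genes low replicate 2 was the lowest of the 6 libraries, low replicate 5 was the highest, and all 3 high libraries lay between them. Cdk1, the kinase of mitotic entry (ENSMUSG00000019942, chromosome 10, 69335146 to 69352938), had 10.5, 8.74 and 15.9 CPM in the high group and 16.5, 3.57 and 27.1 CPM in the low group (log2 fold change -0.43, SE 0.67, edgeR adjusted p = 0.811). Aurka, a kinase of the spindle poles (ENSMUSG00000027496, chromosome 2, 172356190 to 172370535), had 4.14, 4.62 and 6.54 CPM in the high group and 7.80, 2.35 and 12.9 CPM in the low group (log2 fold change -0.59, SE 0.61, edgeR adjusted p = 0.702). The same 2 libraries were lowest and highest for both kinases.

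Of the 14 mitosis genes, 14 were lowest in low replicate 2 and 12 were highest in low replicate 5. Among all genes tested, 11.8% were lowest in low replicate 2 and 12.2% were highest in low replicate 5. The 2 exceptions are kinetochore checkpoint kinases, Bub1, highest in high replicate 4 at 16.7 CPM, and Bub1b, highest in low replicate 1 at 18.6 CPM. With low replicate 2 set aside, high replicate 3 was the lowest for 11 of the 14 and high replicate 1 for 3. The level in low replicate 5 was 4.27 to 9.79 times that in low replicate 2, with a median of 6.32. Birc5, survivin, a subunit of the chromosomal passenger complex, had the widest ratio, 9.79 (95% counting interval 6.66 to 14.9). Plk1, a kinase of centrosomes and of cell division, had a ratio of 9.29 (6.32 to 14.2), from 28 counts in low replicate 2 and 356 in low replicate 5. Mki67 had a ratio of 5.79 (5.10 to 6.58), and the intervals cover counting error only. Within the high group the highest library was 1.44 to 4.77 times the lowest, with a median of 1.87.

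For the replication genes the high end of this order held in every member and the low end in some. Low replicate 5 was the highest library for 8 of 8 replication genes, while low replicate 2 was the lowest for 3 of 8 (37.5%, beside 11.8% of all genes tested). The ratio of low replicate 5 to low replicate 2 was 1.22 to 4.87, with a median of 1.61. Over the 6 libraries, the highest level divided by the lowest had a median of 6.19 for mitosis genes, 1.95 for replication genes and 2.38 for all genes tested. Unlike the ratios above, these were taken from log2 CPM with a prior count of 2, which shrinks ratios of small counts. The median within-group SD of log2 CPM was 1.06 for mitosis genes, 0.385 for replication genes and 0.427 for all genes. These are descriptions, and the difference in spread was not tested.

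**Figure D2:**
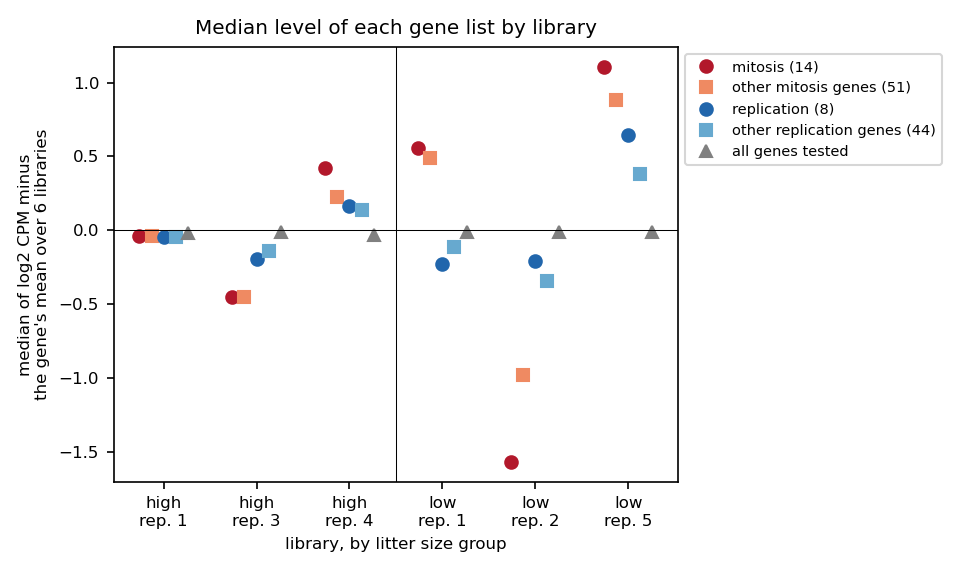
Each point is the median, over the genes of a list, of log2 CPM minus the gene's mean, for 1 of the 6 libraries. The 14 mitosis genes run from -1.57 in low replicate 2 to 1.11 in low replicate 5, while the 8 replication genes run from -0.23 to 0.64.

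The median log2 fold change was -0.43 for the 14 mitosis genes, with 11 negative and 3 positive, and -0.10 for the 8 replication genes, with 6 negative and 2 positive. Without low replicate 5 the mitosis median was 0.19 and without low replicate 2 it was -0.90. The replication median was 0.23 without low replicate 5, so leaving out that library turned the sign of both medians. With high replicates 1 and 3 and low replicate 2 all left out, high replicate 4 stood alone against low replicates 1 and 5, and the medians were -0.50 for mitosis and -0.14 for replication genes. Mki67 and Top2a then had log2 fold changes of -0.39 and -0.020. In RNA from whole tissue, fewer cells of a type and less RNA per cell cannot be told apart. High replicates 1 and 3 and low replicate 2, the 3 libraries of lowest granulosa and oocyte sums given above, had mitosis medians of -0.041, -0.45 and -1.57. The 9 luteal and theca markers summed to 96.8, 199 and 10384 CPM in the high group and 877, 119.7 and 3582 CPM in the low group, with Cyp17a1, the theca enzyme of androgen synthesis, at 0 in high replicate 1 and low replicate 2, where 0 counts allow up to 0.153 and 0.160 CPM. Of the 9 markers, 6 were highest in high replicate 4. Others did not follow the sums. Insl3 was highest in low replicate 2 at 4.32 CPM, and Parm1 in high replicate 3 at 124 CPM. The part of these cell types in the mitosis levels was not tested.

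The remaining members of the group had the same order at low levels. Ccna2, the A cyclin of replication and mitosis, ranged from 5.33 to 32.7 CPM, and it overlaps Exosc9 on the opposite strand. Ccnb2, a second B cyclin, ranged from 2.13 to 14.3 CPM, and is uncertain because its pseudogene Ccnb2-ps had 23 to 109 counts in the same libraries. Aurkb, the kinase of the chromosomal passenger complex, ranged from 2.29 to 12.2 CPM. Tpx2, which activates Aurka on the spindle, ranged from 3.47 to 27.5 CPM, and Cenpa, the histone variant of centromeres, from 3.25 to 18.4 CPM.

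To describe what the members share, promoters of the mitosis and replication genes were searched for the motifs known for cell cycle genes. Whether the motifs relate to the order of the libraries was not tested. The sequences are from RefSeq (GRCm38.p6), with 250 bases before and 50 after each gene start, for 25 of the 33 members. Ccna2, Aurkb, Tpx2, Mcm4, Ccne2, Ccnd1, Ccnd2 and Cdkn1c had no entry. The motifs, on both strands, were TTTGAA, the core of the cell cycle genes homology region bound by the DREAM and MuvB complexes, CCAAT, the NF-Y box, and 5 forms of the E2F site, TTTCCCGC, TTTGGCGC, TTTCGCGC, TTCCCGCC and TTGGCGGG. A gene with several starts was counted once, if any start held the motif, and E2F matches that overlapped were merged. The 5 stretches below show the contrast between the 2 groups; each is printed from the 5′ end on the gene's own strand up to the base before the RefSeq start or, for Cdk1, before the first annotated exon, with the motifs in capitals. Reverse matches read TTCAAA for the homology region core and ATTGG for the NF-Y box.

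Cdk1 chr10:69352939-69353162, minus strand: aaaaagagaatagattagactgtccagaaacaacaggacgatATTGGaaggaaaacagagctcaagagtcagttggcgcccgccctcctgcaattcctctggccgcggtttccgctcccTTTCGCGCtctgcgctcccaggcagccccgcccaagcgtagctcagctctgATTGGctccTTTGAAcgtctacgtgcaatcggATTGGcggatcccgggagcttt

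Top2a chr11:99024190-99024439, minus strand: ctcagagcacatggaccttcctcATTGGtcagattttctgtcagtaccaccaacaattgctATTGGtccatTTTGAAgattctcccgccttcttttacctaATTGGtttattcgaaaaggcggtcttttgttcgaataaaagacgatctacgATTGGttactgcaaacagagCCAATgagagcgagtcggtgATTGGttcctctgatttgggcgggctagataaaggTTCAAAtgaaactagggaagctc

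Mki67 chr7:135716380-135716629, minus strand: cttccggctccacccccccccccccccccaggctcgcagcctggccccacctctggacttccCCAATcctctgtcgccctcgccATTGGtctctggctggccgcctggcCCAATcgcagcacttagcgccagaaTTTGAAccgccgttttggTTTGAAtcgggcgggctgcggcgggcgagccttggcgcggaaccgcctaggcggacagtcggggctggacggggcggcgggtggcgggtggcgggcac

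Mcm5 chr8:75109259-75109508, plus strand: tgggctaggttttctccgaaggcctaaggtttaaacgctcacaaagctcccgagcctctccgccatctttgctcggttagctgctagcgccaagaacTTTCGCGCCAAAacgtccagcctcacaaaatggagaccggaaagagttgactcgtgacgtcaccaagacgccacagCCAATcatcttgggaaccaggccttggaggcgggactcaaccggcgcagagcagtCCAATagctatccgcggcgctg

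Mcm6 chr1:128359706-128359955, minus strand: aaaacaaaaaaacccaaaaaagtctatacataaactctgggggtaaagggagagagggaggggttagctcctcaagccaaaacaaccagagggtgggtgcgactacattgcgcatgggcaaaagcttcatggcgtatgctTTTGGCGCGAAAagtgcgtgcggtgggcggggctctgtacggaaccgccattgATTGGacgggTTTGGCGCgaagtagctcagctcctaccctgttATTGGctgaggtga

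Mki67 and Top2a each held 2 homology region cores in the printed stretch and no E2F site, while Mcm5 and Mcm6 held E2F sites and no homology region core. Cdk1 held both kinds. Of 11 mitosis genes with an entry, 8 held TTTGAA (72.7%, against 20.2% of 27025 genes in the table), 10 held CCAAT (90.9% against 41.1%) and 1 held an E2F site, Cdk1 (9.09% against 4.89%). Of 7 replication genes with an entry, 1 held TTTGAA, Mcm2 (14.3%), 7 held CCAAT and 4 held an E2F site, Mcm3, Mcm5, Mcm6 and Mcm7 (57.1%). The other genes of each pathway gave similar shares for the homology region core and the E2F site, but lower shares for the NF-Y box. The NF-Y box was in 29 of the 42 other mitosis genes with an entry (69.0%). It was in 18 of the 35 other replication genes (51.4%, beside 41.1% of all genes in the table). Of 42 other mitosis genes 30 held TTTGAA (71.4%) and 4 an E2F site (9.52%), and of 35 other replication genes 6 held TTTGAA (17.1%) and 19 an E2F site (54.3%). A match is a description of the letters and not of binding.

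**Figure D3:**
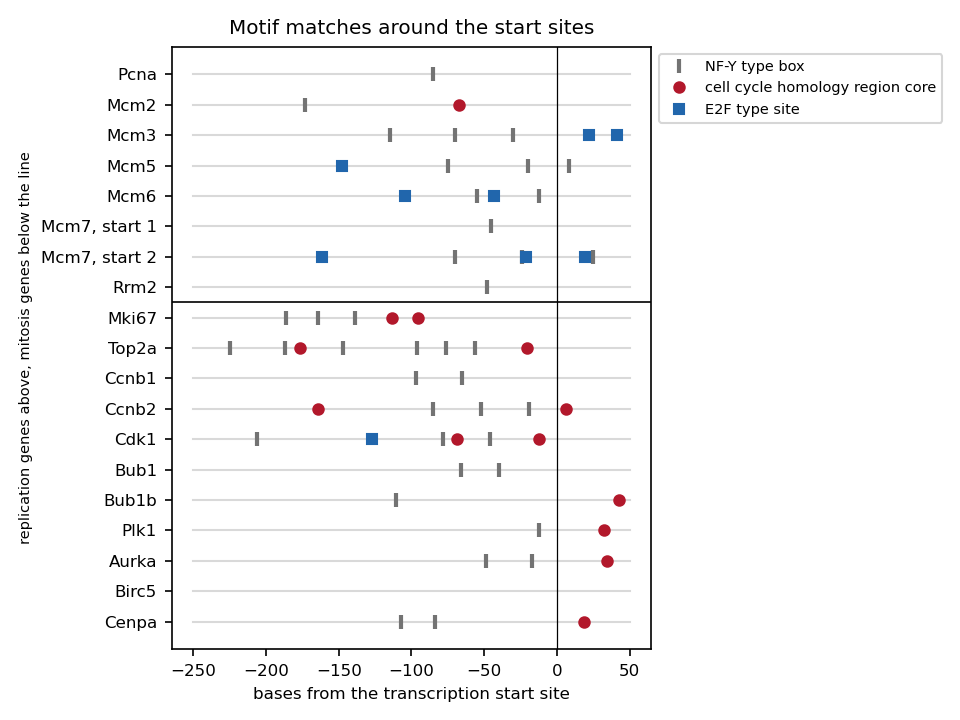
Each row is 1 promoter of a mitosis or replication gene, and each mark is a motif at its distance in bases from the RefSeq start, with colour for the kind of motif. The homology region cores lie mainly on the mitosis rows and the E2F type sites mainly on the replication rows.

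The D cyclins moved apart from each other. Ccnd2 (ENSMUSG00000000184, chromosome 6, 127125162 to 127152193) was the member with the largest difference, and had 154, 726 and 112 CPM in the high group and 40.1, 79.4 and 82.2 CPM in the low group. All 3 high libraries were above all 3 low libraries, and high replicate 3 was far above the rest. The group means were 331 ± 343 CPM (SD, n = 3) in the high group and 67.3 ± 23.5 CPM (SD, n = 3) in the low group. The difference did not pass the test (log2 fold change 2.30, SE 0.77, edgeR adjusted p = 0.288, unadjusted p = 0.021), and DESeq2 gave an adjusted p of 0.0277. Without high replicate 3 the log2 fold change was 0.98, and without high replicates 1 and 3 and low replicate 2 it was 0.84.

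High replicate 3, the library with the most Ccnd2, stood apart in other markers. The 9 adipocyte markers summed to 3457, 24760.4 and 2274 CPM in the high group and 321, 3633 and 1245 in the low group. Ucp1, the uncoupling protein of brown fat, had 6.95, 74.9 and 0.151 CPM in the high group. In the low group it had 0, 0 and 0.039 CPM. There, 0 counts allow up to 0.173 and 0.160 CPM in replicates 1 and 2. Ucp1 was not among the genes tested. The 7 erythroid markers summed to 190.4, 2365 and 293 CPM in the high group and 200.4, 369 and 129 CPM in the low group. The 9 stratified epithelium markers summed to 203, 102 and 696 CPM in the high group and 23.3, 22.2 and 12.4 in the low group. These sums did not overlap between the groups, as Ccnd2 did not. Taken singly, 4 of the 9 markers had every high library above every low library. Inside the high group the order was not that of Ccnd2. High replicate 3 had the most Ccnd2 and the lowest sum, and high replicate 4 the least Ccnd2 and the highest sum. The part of these cell types in the Ccnd2 level was not tested.

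Ccnd1 (ENSMUSG00000070348, chromosome 7, 144929931 to 144939925) went the other way, with 104, 51.9 and 66.4 CPM in the high group and 117, 127 and 184 CPM in the low group. All 3 high libraries were below all 3 low libraries, though high replicate 1 and low replicate 1 were close. The group means were 73.9 ± 26.6 CPM (SD, n = 3) in the high group and 142 ± 36.1 CPM (SD, n = 3) in the low group. The difference did not pass the test (log2 fold change -0.95, SE 0.32, edgeR adjusted p = 0.296, unadjusted p = 0.023), and DESeq2 gave an adjusted p of 0.114. When each library was left out in turn the log2 fold change of Ccnd1 stayed between -1.28 and -0.72. Ccnd1 overlaps LTO1 on the opposite strand, which had 432 to 602 counts beside at least 831 for Ccnd1. The 8 simple epithelium markers summed to 503, 529 and 932 CPM in the high group and 4325, 2672 and 1915 CPM in the low group, and the 8 smooth muscle markers to 10719, 3355 and 5469.5 CPM in the high group and 8306, 13518 and 15925 CPM in the low group. The epithelial sums, like Ccnd1, were lower in every high library. Inside the low group, in the order of the replicates, the epithelial sums fell while Ccnd1 rose. Inside the high group, replicate 1 had the lowest epithelial sum and the most Ccnd1. The smooth muscle sums overlapped between the groups, since high replicate 1 was above low replicate 1. Inside each group they ranked the libraries as Ccnd1 did. The part of epithelial or smooth muscle cells in the Ccnd1 level was not tested.

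Ccnd3 (ENSMUSG00000034165, chromosome 17, 47505051 to 47599691) was the steadiest D cyclin, with 82.6, 106 and 81.3 CPM in the high group and 96.6, 101 and 94.3 CPM in the low group (log2 fold change -0.11, SE 0.18, edgeR adjusted p = 0.817). The groups overlapped, and the highest library was 1.30 times the lowest. It overlaps Bysl on the opposite strand, which had 214 to 662 counts beside at least 1617 for Ccnd3. Per kilobase of the principal transcript, Ccnd3 was the largest D cyclin in high replicates 1 and 4 and in low replicates 1 and 2, Ccnd2 was the largest in high replicate 3, and Ccnd1 in low replicate 5. Ccnd2 made up 64.2% of the D cyclin sum per kilobase in high replicate 3, 26.7% in high replicate 1 and 23.9% in high replicate 4, against 7.62, 13.3 and 12.2% in the low libraries. Ccnd1 made up 7.77% in high replicate 3 and 24.01 to 46.03% elsewhere. The 3 shares sum to the whole in each library, so they do not vary independently.

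The partner kinases gave 0 of 2 that passed the test. Cdk4 (ENSMUSG00000006728, chromosome 10, 127063534 to 127067920) had 151, 84.7 and 131 CPM in the high group and 113, 105 and 169.8 CPM in the low group (log2 fold change -0.081, SE 0.30, edgeR adjusted p = 0.924). It overlaps Tspan31 on the opposite strand, which had 1304 to 2409 counts beside at least 1357 for Cdk4. Cdk6 (ENSMUSG00000040274, chromosome 5, 3341485 to 3531008) had 42.9, 45.1 and 29.9 CPM in the high group and 43.9, 26.4 and 37.96 CPM in the low group (log2 fold change 0.12, SE 0.27, edgeR adjusted p = 0.865). Cdk4 was lowest in high replicate 3 and highest in low replicate 5, as Ccnd1 was, and Cdk6 was highest in high replicate 3, as Ccnd2 was; no association was tested. The groups overlapped for both kinases, and without high replicates 1 and 3 and low replicate 2 the median of the 2 was -0.31 against 0.021 with all libraries.

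The 3 inhibitors of the Cip and Kip family had positive log2 fold changes and none passed. Cdkn1a, the p53 target that halts the cycle after damage (ENSMUSG00000023067, chromosome 17, 29090976 to 29100727), had 48.4, 119 and 42.2 CPM in the high group and 40.7, 74.3 and 36.2 CPM in the low group (log2 fold change 0.47, SE 0.48, edgeR adjusted p = 0.699). High replicate 3 was the highest, and without it the log2 fold change was -0.15. Cdkn1b, the inhibitor that restrains granulosa and luteal cell division (ENSMUSG00000003031, chromosome 6, 134920401 to 134925513), had 112, 67.8 and 200.1 CPM in the high group and 82.7, 102 and 134 CPM in the low group (log2 fold change 0.25, SE 0.41, edgeR adjusted p = 0.818). Its highest library was high replicate 4, and without that library the log2 fold change was -0.27. High replicate 4 had the highest sums of luteal and theca markers and also of granulosa, oocyte, stratified epithelium and ciliated epithelium markers. The part of these cell types in the Cdkn1b level was not tested. Cdkn1c, an imprinted inhibitor (ENSMUSG00000037664, chromosome 7, 143458339 to 143461050), had 40.7, 22.2 and 19.9 CPM in the high group and 12.997, 23.6 and 16.9 CPM in the low group (log2 fold change 0.63, SE 0.36, edgeR adjusted p = 0.478). High replicate 1 was the highest library for Cdkn1c, and without it the log2 fold change was 0.23. A different high library thus led each of the 3 inhibitors. Their median was 0.47, and 0.38 without high replicates 1 and 3 and low replicate 2.

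**Figure D4:**
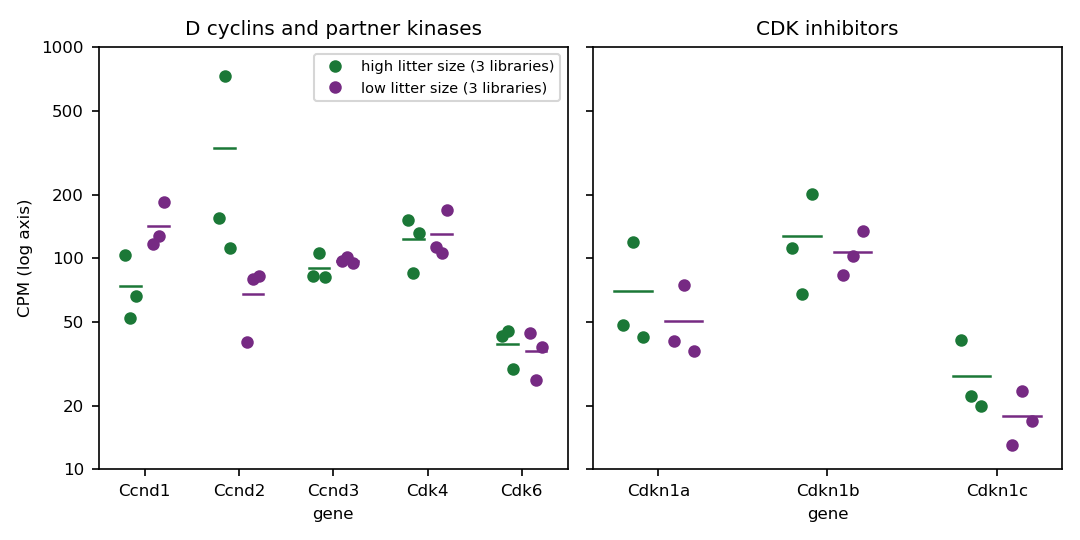
CPM on a log axis for the D cyclins, Cdk4, Cdk6 and the 3 inhibitors, with 1 point per library, coloured by group. Ccnd2 in high replicate 3 stands at 726 CPM above all other points, and the points of the groups separate for Ccnd1 and Ccnd2.

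**Figure D5:**
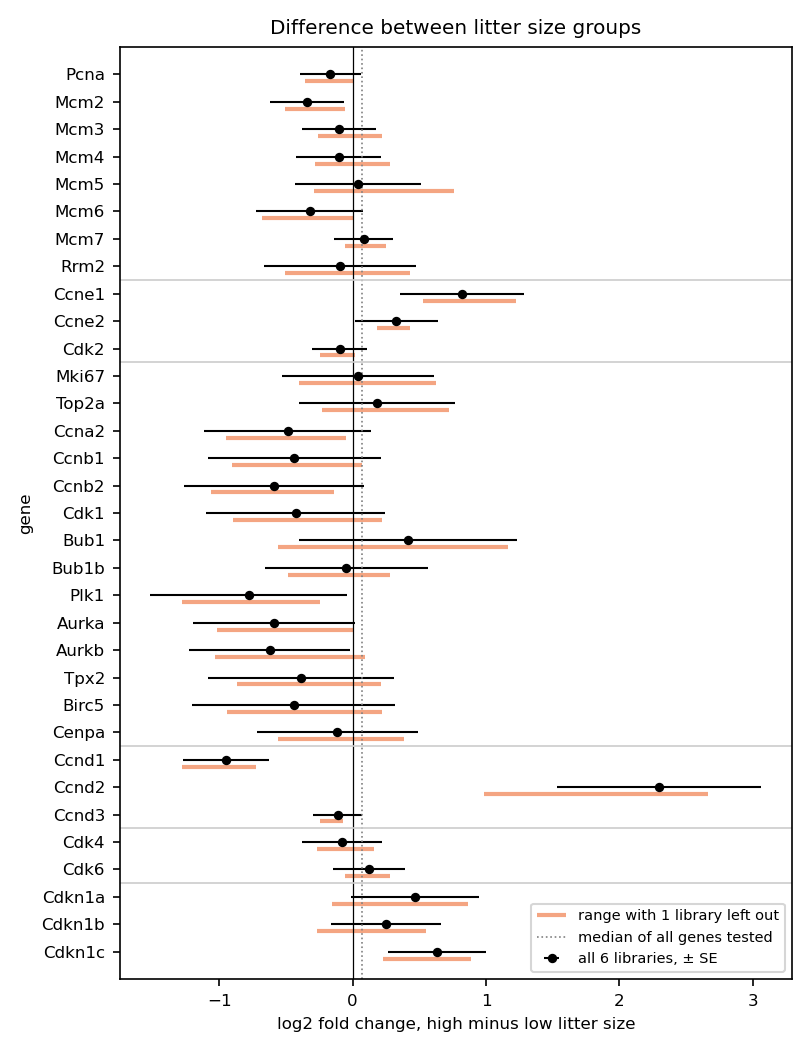
Log2 fold change (high minus low litter size) of each of the 33 genes, with bars of 1 SE from the edgeR fit, grouped by role. Most bars cross 0, Ccnd2 lies farthest right at 2.30 and Ccnd1 farthest left at -0.95.

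The wider pathways gave no gene that passed the edgeR test. The other mitosis genes, 51 of 51 tested, had a median log2 fold change of -0.36, with 44 negative and 7 positive, and 0 passed. Low replicate 2 was the lowest library for 38 of the 51 (74.5%) and low replicate 5 the highest for 37 (72.5%). Over all genes tested, 7.82% were lower in the high group and 6.56% higher at an unadjusted p under 0.05, and DESeq2 called 6.24%. Of the 51, 2 were lower and 0 higher at that p, and DESeq2 called the same 2 genes. They were Melk, a kinase of dividing cells, with 3.78, 3.37 and 5.33 CPM in the high group and 9.53, 10.6 and 13.8 CPM in the low group (log2 fold change -1.44, SE 0.33, edgeR adjusted p = 0.190), and Mad2l1, a spindle checkpoint protein, with 14.3, 14.05 and 24.99 CPM in the high group and 49.04, 26.6 and 64.3 CPM in the low group (log2 fold change -1.39, SE 0.40, edgeR adjusted p = 0.237). For both genes low replicate 2 was above all 3 high libraries, unlike its place for the 14 mitosis members.

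The other replication genes, 44 of 44 tested, had a median log2 fold change of 0.017, with 21 negative and 23 positive, and 0 passed. Low replicate 2 was the lowest library for 22 of the 44 and low replicate 5 the highest for 26 (59.1%). At an unadjusted p under 0.05, 1 of the 44 was higher and 0 lower (6.56% and 7.82% over all genes tested). DESeq2 called 0 (6.24% over all genes). The pair of smallest p were Orc2, a subunit of the origin recognition complex, with 29.03, 34.8 and 45.8 CPM in the high group and 24.5, 24.8 and 21.2 CPM in the low group (log2 fold change 0.64, SE 0.23, edgeR adjusted p = 0.307), and Gins1, a subunit of the replicative helicase, with 3.27, 3.68 and 4.27 CPM in the high group and 1.68, 1.17 and 2.65 CPM in the low group (log2 fold change 1.02, SE 0.44, edgeR adjusted p = 0.355). Every high library was above every low library for both, the only 2 of the 44 without overlap (19.5% over all genes tested). Without high replicate 4 the log2 fold change of Orc2 was 0.41.

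The E2F and retinoblastoma family, 18 of 18 tested, had a median log2 fold change of 0.044, with 9 genes each way, and 0 passed. At an unadjusted p under 0.05, 2 were higher and 0 lower, and DESeq2 called both. The background shares at that p were 6.56% (higher) and 7.82% (lower). For DESeq2 calls the background shares were 2.15% (higher) and 4.08% (lower). Tfdp2, a partner that E2F factors need to bind DNA, had 53.004, 43.1 and 57.5 CPM in the high group and 22.8, 22.7 and 28.9 CPM in the low group (log2 fold change 1.05, SE 0.21, edgeR adjusted p = 0.162), and was the pathway gene of smallest p. Rb1, the retinoblastoma protein that holds E2F factors silent, had 44.2, 83.8 and 59.3 CPM in the high group and 31.02, 28.8 and 34.96 CPM in the low group (log2 fold change 0.98, SE 0.27, edgeR adjusted p = 0.224). The groups did not overlap for either gene. Of the 18 genes, 5 had the high group above and 1 below, beside 8.75% and 10.8% of all genes tested.

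The other inhibitors and arrest genes, 16 of 16 tested, had a median log2 fold change of 0.22, with 7 negative and 9 positive, and 0 passed. At an unadjusted p under 0.05, 3 were higher and 1 lower, and DESeq2 called 0. The matching background shares were 6.56% (higher), 7.82% (lower) and 6.24% (called by DESeq2). Sesn1, a stress gene induced by p53, had 75.6, 44.3 and 75.5 CPM in the high group and 25.8, 40.3 and 33.4 CPM in the low group (log2 fold change 0.97, SE 0.29, edgeR adjusted p = 0.245), and Btg2, an early gene that slows division, had 72.5, 79.5 and 78.5 CPM in the high group and 145, 159 and 79.5 CPM in the low group (log2 fold change -0.73, SE 0.28, edgeR adjusted p = 0.328). The groups did not overlap for either gene, and the 2 genes went in opposite directions. For Btg2, high replicate 3 and low replicate 5 were equal to the digits printed. Of the 16 genes, 3 had the high group above and 2 below, beside 8.75% and 10.8% of all genes tested.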

How the data were processed

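The authors deposited 1 table of estimated counts per gene. Per the submitters' processing notes, kallisto, Trim Galore and DESeq2 were used with the GRCm38 build, and no version is named. All values are whole, so kallisto estimates seem to have been rounded, though no source says so. Neither the annotation release nor the use of strand is given in the sources used here. Because kallisto divides reads among similar transcripts, genes with close copies are uncertain.

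Symbols matched 35869 of 36727 genes, and coordinates came from GENCODE M21 (35948 genes). The 33 genes and the pathway and marker lists were chosen with earlier results of these data known. The labelled litter size set the groups. Genes were kept by filterByExpr (minimum count 10, minimum total 15), and 16455 remained. Libraries were normalized by TMM and genes tested with edgeR 4.0.16 (quasi-likelihood F test, R 4.3.3) with Benjamini-Hochberg adjustment over all genes tested and a threshold of 0.05. No covariate was fitted. A common dispersion of 0.219 was fitted, that is a biological coefficient of variation of 46.8%. DESeq2 1.42.0 left 822 adjusted p-values undefined, which were kept so. Other settings were RLE and library-size scaling, no filter, at least 1 CPM in 3 libraries, voom in limma 3.58.1, each library left out, and joint removal of the 3 libraries of lowest granulosa markers. The scripts were tested on simulated data. Ratio intervals are at 95% and cover counting error only.

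Values in every library are given for Mki67, Top2a, Ccnb1, Cdk1, Aurka, Pcna, Mcm2, Mcm5, Rrm2, the E and D cyclins, Cdk4, Cdk6, the 3 inhibitors, each member whose groups do not overlap and the 5 of smallest p. Of each pathway list the 2 of smallest p with at least 1 CPM in the higher group are named.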

Additional observations from a re-analysis of the deposited data

How the results depend on the processing

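No paired analysis was possible because only 1 replicate number, 1, occurs in both groups. The number of genes called over the whole table was 1 with edgeR, 2 with library-size scaling, 3 with voom, 1026 with DESeq2, 0 with the 3 libraries of lowest granulosa markers left out and 0 to 1 when each library was left out, the 1 being without high replicate 3. The count of members called was 0 under every setting except DESeq2, where it was 1. Voom gave positive log2 fold changes for Rrm2 (0.10), Bub1b (0.15) and Cenpa (0.13), and library-size scaling for Bub1b (0.0056). Joint removal left high replicate 4 alone, whose spread was taken to equal that of the low libraries, and moved the medians of the D cyclins to -0.26 and of Cdk4 and Cdk6 to -0.31. It changed the sign of Pcna (0.016), Mcm5 (-0.33), Cdk2 (0.043), Mki67 (-0.39), Top2a (-0.020) and Cdk6 (-0.49). Leaving out each library in turn moved the median of the CDK inhibitors between 0.33 and 0.86, and changed the sign of 23 of the 33 log2 fold changes at least once, 15 of them without low replicate 5. The ranges were Pcna (-0.36 to 0.0064), Mcm3 (-0.26 to 0.22), Mcm4 (-0.29 to 0.28), Mcm5 (-0.29 to 0.76), Mcm6 (-0.68 to 0.00070), Mcm7 (-0.054 to 0.25), Rrm2 (-0.51 to 0.43), Cdk2 (-0.24 to 0.018). For mitosis genes they were Mki67 (-0.40 to 0.63), Top2a (-0.23 to 0.72), Ccnb1 (-0.90 to 0.068), Cdk1 (-0.90 to 0.22), Bub1 (-0.56 to 1.17), Bub1b (-0.48 to 0.28), Aurka (-1.02 to 0.0084), Aurkb (-1.03 to 0.095). The others were Tpx2 (-0.87 to 0.21), Birc5 (-0.94 to 0.22), Cenpa (-0.56 to 0.38), Cdk4 (-0.27 to 0.16), Cdk6 (-0.059 to 0.28), Cdkn1a (-0.15 to 0.86), Cdkn1b (-0.27 to 0.55). The cause of these changes was not tested. The other 10 members kept their sign when any 1 library was left out, and their ranges were Mcm2 (-0.51 to -0.054), Ccne1 (0.53 to 1.23), Ccne2 (0.19 to 0.43), Ccna2 (-0.95 to -0.052), Ccnb2 (-1.06 to -0.14), Plk1 (-1.28 to -0.25), Ccnd1 (-1.28 to -0.72), Ccnd2 (0.98 to 2.67), Ccnd3 (-0.25 to -0.072) and Cdkn1c (0.23 to 0.89). The low ends for Ccna2, Ccnb2 and Plk1 were without low replicate 2 and the high ends without low replicate 5.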

Other observations

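Of the 16 other inhibitors and arrest genes, 5 were highest in high replicate 3 (31.3%), beside 27.7% of all genes tested, a share near the background. The 3 below were singled out after their values were seen. Cdkn2c, an inhibitor of Cdk4 and Cdk6, had 35.1, 182 and 38.5 CPM in the high group and 16.5, 35.6 and 23.3 CPM in the low group (log2 fold change 1.76, SE 0.71, edgeR adjusted p = 0.336). Ccng2, a cyclin of non-dividing cells, had 70.8, 145 and 70.2 CPM in the high group and 24.4, 65.5 and 52.6 CPM in the low group (log2 fold change 1.005, SE 0.45, edgeR adjusted p = 0.375). Sesn2, a stress gene, had 16.5, 46.9 and 16.1 CPM in the high group and 12.1, 13.2 and 9.04 CPM in the low group (log2 fold change 1.21, SE 0.47, edgeR adjusted p = 0.329). The groups did not overlap for Ccng2 or Sesn2, while for Cdkn2c high replicate 1 was below low replicate 2. Of the 51 other mitosis genes, 8 were highest in low replicate 1 (15.7%, beside 17.2% of all genes tested). Ncapg, a condensin subunit, was 1 of them. It had 7.21, 8.99 and 12.2 CPM in the high group and 60.7, 1.92 and 17.7 CPM in the low group (log2 fold change -1.50, SE 1.01, edgeR adjusted p = 0.545).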
